A study of Mus musculus with 9 samples.

Results

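The genes described here are the 47 nuclear genes that maintain, copy, transcribe and translate mitochondrial DNA, taken by gene symbol from a named list that was drawn up with earlier results of these data known. No value of these genes entered the rule. All 47 were found among the 55536 gene IDs of the count table, and all 47 were among the 15720 genes with enough counts to be tested. The RNA came from primary mouse myoblasts, the dividing precursor cells of skeletal muscle, taken from mice with loxP sites in Uqcrfs1. Uqcrfs1 encodes the Rieske iron-sulphur protein of respiratory complex III. The floxed vehicle group (Uqcrfs1 +/+, adenovirus for green fluorescent protein, DMSO) had 3 libraries. The knockout vehicle group (Uqcrfs1 -/-, adenovirus for Cre recombinase, DMSO) had 3, and the knockout oxybutynin group (Uqcrfs1 -/-, adenovirus for Cre recombinase, oxybutynin at 7.5 µM) had 3. They are called floxed cells, vehicle knockout cells and treated knockout cells. All cells were seeded 72 h after the virus, received drug or DMSO 24 h later and were cultured for 5 days. The study used this design to ask how loss of complex III, and then oxybutynin, a muscarinic receptor antagonist, change gene expression. Genotype and virus cannot be told apart, and floxed cells with oxybutynin were not analysed here.

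The mitochondrial genome encodes a few core subunits of the respiratory chain and ATP synthase, and the ribosomal and transfer RNAs needed to make them. Everything else that this genome requires is encoded in the nucleus: TFAM packages the DNA and helps POLRMT start transcription, POLG and the helicase Twinkle copy it, nucleases cut the long transcripts at their tRNAs, LRPPRC and SLIRP protect the messages, and bacterial-type factors drive translation. Complex III itself contains cytochrome b from the mitochondrial genome beside nuclear subunits such as the Rieske protein, so both genomes must be expressed to build it.

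Library totals ran from 19604971 to 26226949 counts, and the 47 genes took between 0.14% and 0.159% of them. Uqcrfs1 was at 79.6 ± 3.67 counts-per-million (CPM, mean ± SD, n = 3) in floxed cells, 2.45 ± 0.356 in vehicle knockout cells and 2.56 ± 0.437 in treated knockout cells, low in both groups labelled knockout. The 9 myoblast markers summed to between 4380 and 5470 CPM in every library, with single markers moving either way between vehicle knockout and floxed cells (Des log2 0.43, Cdh15 -0.88, Myog -0.55), while summed markers of fibroblasts, endothelium, leukocytes and Schwann cells reached at most 13.1 CPM and those of smooth muscle at most 49. Leukocyte markers summed to 5.21 to 6 CPM in floxed cells and 10.8 to 13.1 CPM in the knockout groups. None of the 5 was at 0 in all libraries, and 4 of the 5 were under 1 CPM in all. Most of the sum was Cd68, with means of 4.74, 10.8 and 12 CPM in floxed, vehicle knockout and treated knockout cells. Ptprc, Adgre1 and Cd3e had lower means in both knockout groups than in floxed cells, and Itgam had higher ones. Fibroblast markers summed to 4.71 to 6.23 CPM in floxed cells and 8.29 to 10.2 CPM in the knockout groups, with 2 of the 6 at 0 in all libraries. Smooth muscle markers summed to 46.5 to 49 CPM in floxed, 34.5 to 40.3 CPM in vehicle knockout and 27.5 to 28.6 CPM in treated knockout cells. None of the 4 was at 0 in all libraries. Most of this sum was Rgs5, with means of 43.9, 32.4 and 23.2 CPM in these groups. Cspg4, Myh11 and Kcnj8 had higher means in both knockout groups than in floxed cells. The part of these markers in the results was not tested. Levels are relative to the RNA of the whole library, so fewer cells of a kind and less RNA per cell cannot be told apart. The mitochondrial genome's own transcripts took 3.11% ± 0.0361 of counts in floxed cells, 2.23% ± 0.415 in vehicle knockout cells and 1.78% ± 0.296 in treated knockout cells (SD, n = 3). None of these differences passed the exact two-sided permutation test (p = 0.1, 0.3 and 0.1 for knockout with floxed vehicle, oxybutynin with knockout vehicle and oxybutynin with floxed vehicle, adjusted p = 0.15, 0.3 and 0.15), for which 0.1 is the smallest p that 3 libraries against 3 allow.

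Promoters were available for 41 of the 47 genes in the RefSeq table of build GRCm38.p6, as 250 bases before and 50 after each start. The letters CCGGAAGT, on either strand, are the kind of site that ETS factors such as GABPA bind, and GABPA is a textbook activator of nuclear genes for mitochondria. They lay in the promoters of 9 of the 41 genes (22%), against 8.88% of 10722 tested genes and 4.31% of all 27025 genes with a promoter. These 9 were Tfam, Tefm, Polg, Twnk, Trmt10c, Trmu, Fastkd5, Tufm and Gfm1. The windows below show the match, in capitals, in 6 of them that span transcription, replication, RNA processing and translation. Each is on the gene's own strand, 5′ to 3′, and the match began between 111 bases before the start (Twnk, position -111) and position -2 (Tufm).
Tfam (minus strand, chr10:71238073-71238102): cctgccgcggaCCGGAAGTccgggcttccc
Tefm (minus strand, chr11:80142144-80142173): agcacacgaaaCCGGAAGTtgaggaggaac
Polg (minus strand, chr7:79466293-79466322): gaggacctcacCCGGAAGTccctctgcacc
Twnk (plus strand, chr19:45006436-45006465): actaaccggtgACTTCCGGttccggggttg
Trmt10c (minus strand, chr16:56037781-56037810): ggtggtgccggACTTCCGGcggccgcggcg
Tufm (plus strand, chr7:126487342-126487371): cctcatttccgCCGGAAGTgatctgcagtc

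Such a match describes letters and does not show that a factor was bound. Genes with the match did not share a direction after the knockout: of the 9, Tufm was higher, Tfam, Trmt10c and Fastkd5 were lower, and Tefm, Polg, Twnk, Trmu and Gfm1 were not called. The NRF1 core GCGCATGCG was found in 1 of the 41 promoters, that of Tfb2m, against 3.96% of tested genes. The MYC E-box CACGTG was found in 3 (7.32%, against 11.7%), those of Lig3, Mpv17 and Fastkd1. The ATF4 composite letters TGATGNAAT were found in 0 of the 41, against 0.541% of tested genes. No match says only that these letters are not in this window. No member's promoter held more than 1 of these 4 motifs.

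Between vehicle knockout and floxed cells, genes of this machinery differed in both directions, in shares near those of all genes. By edgeR's quasi-likelihood test, with adjusted p under 0.05 over all tested genes, 16 of the 47 genes were higher in vehicle knockout cells than in floxed cells, 13 were lower and 18 were not called. Over all tested genes 29.9% were called higher and 33.4% lower, and the members' shares were 34% and 27.7%. Changes were small: the median size of the log2 fold change was 0.34 among the members and 0.51 over all genes. The signed median was 0.12 for the members and -0.01 for all genes. No gene of the machinery rose by 2-fold or more, and 3 fell by more than that: Pnpt1, Trmt10c and Mtrf1l. Called changes of at least 1.5-fold were found in 12 of the 47 genes, against 41.1% of all tested genes. The largest rise was that of Top1mt. The ranges of the 2 groups did not overlap for 30 of the 47 genes, against 66.7% of all genes.

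**Figure D1:**
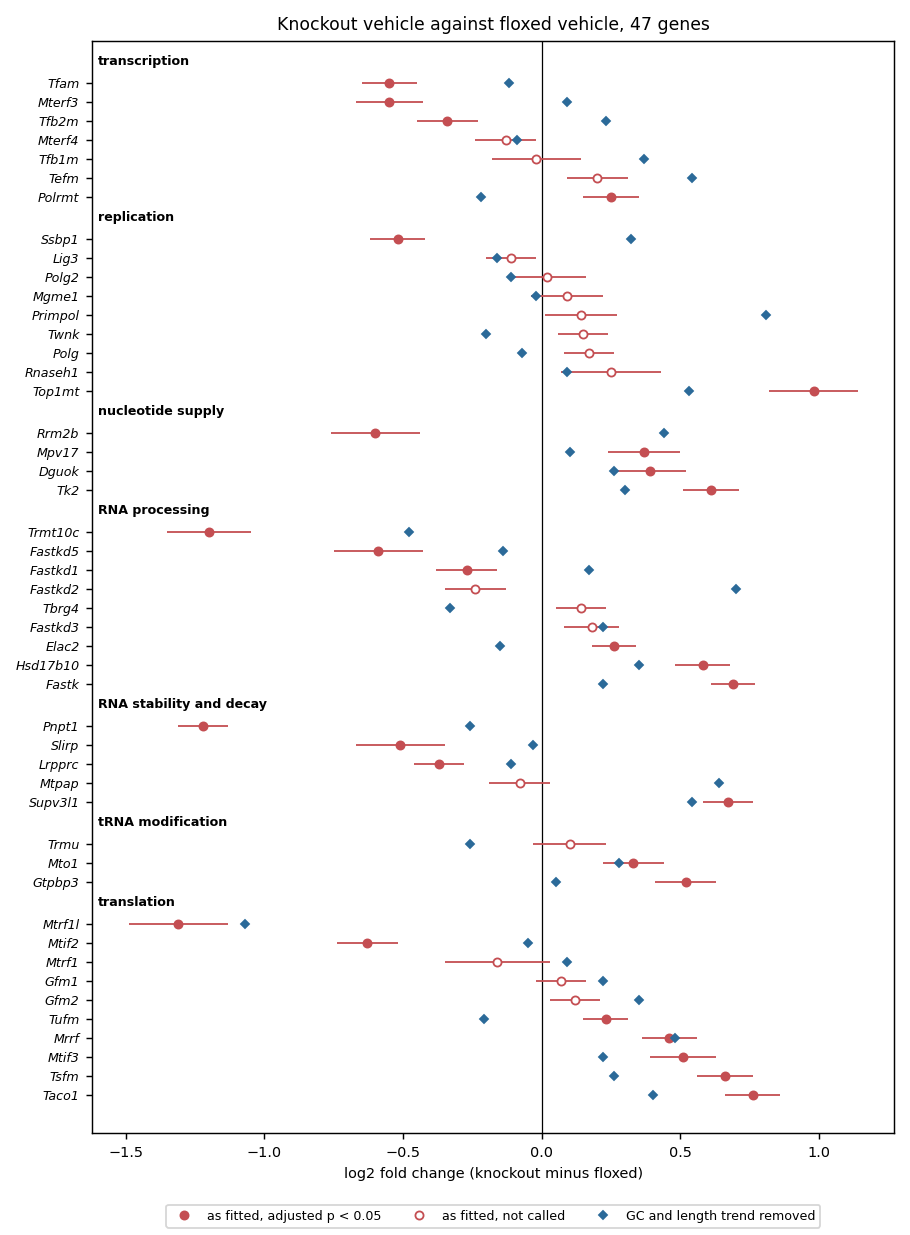
Log2 fold change of each of the 47 genes between vehicle knockout and floxed cells (x axis), grouped by role. Circles give the fit of the counts with 1 standard error, filled where the adjusted p was under 0.05, and diamonds give the same value after the trend with GC content and length was removed. Pnpt1, Trmt10c and Mtrf1l lie farthest to the left and Top1mt farthest to the right. Several genes have circle and diamond on opposite sides of 0, and of these Polrmt, Tfb2m, Ssbp1, Rrm2b, Elac2 and Tufm were called in both fits.

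The direction of change followed base composition. The 16 higher genes had transcripts with a median GC content of 53% (48.5% to 60.2%), and the 13 lower genes had a median of 43.3% (40.8% to 46.9%), with no overlap between them. Across the 47 genes log2 fold change and GC content had a Spearman correlation of 0.774, and across 15714 tested genes it was 0.578. These points share the same libraries and their depth, and genes are not independent replicates. The part of base composition in these changes was not tested. For that reason the changes between vehicle knockout and floxed cells are given below as fitted and after removal of each library's smooth trend with GC content and exon length over all genes, called GC-adjusted here. With that trend removed, 19 members were higher and 8 lower, against 27.8% and 30% of all genes. Of the 29 genes called as fitted, 12 were called in the same direction after adjustment (9 higher, 3 lower), 11 lost their call and 6 were called in the opposite direction. The 12 were Top1mt, Tk2, Hsd17b10, Fastk, Supv3l1, Mto1, Tsfm, Mrrf and Taco1, all higher, and Trmt10c, Pnpt1 and Mtrf1l, all lower. The 6 were Polrmt, Elac2 and Tufm, higher as fitted, and Tfb2m, Ssbp1 and Rrm2b, lower as fitted. How many of all called genes kept, lost or reversed their call was not worked out, so these counts describe the members only. The counts by role below stand beside the same shares over all genes, 29.9% higher and 33.4% lower as fitted and 27.8% and 30% after GC adjustment. They are descriptions of small groups, and differences between roles were not tested.

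**Figure D2:**
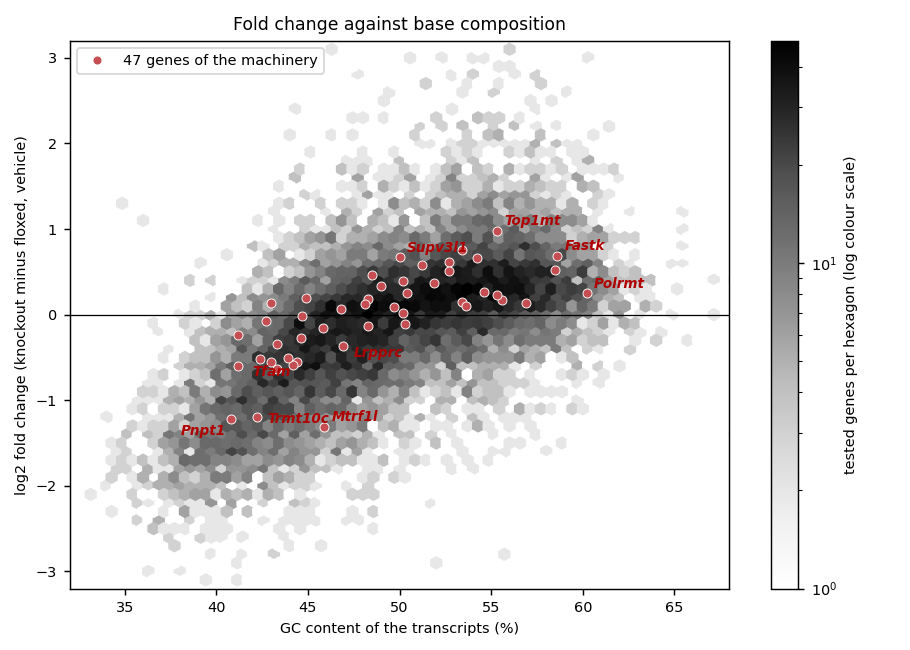
GC content of the transcripts in percent (x axis) against the log2 fold change between vehicle knockout and floxed cells (y axis). Grey hexagons count all tested genes on a log colour scale and red points are the 47 genes. The red points rise from Pnpt1 at 40.8% to Polrmt at 60.2% GC, and the grey cloud also rises with GC content, with Mtrf1l in its lower part.

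Among the 7 transcription genes, 1 rose (Polrmt), 3 fell (Tfam, Mterf3, Tfb2m) and 3 were not called, and after GC adjustment 2 were higher and 1 lower. Tfam, the protein that coats mitochondrial DNA and bends its promoters, lies at chr10:71225464-71238280 (GRCm38, minus strand) and was at 25.8, 23.6 and 26.9 CPM in floxed cells and 18.2, 18.5 and 15.6 CPM in vehicle knockout cells. The groups did not overlap, and Tfam was lower by 1.46-fold (log2 fold change -0.55 ± 0.1 SE, edgeR adjusted p = 0.000157). After GC adjustment the difference was -0.12 with an adjusted p of 0.221, so the call was lost. Mterf3, a brake on transcription from the mitochondrial promoters, was at 31.8, 36.2 and 35.9 CPM in the floxed and 24.1, 27.0 and 20.1 CPM in vehicle knockout cells. Its log2 fold change was -0.55 ± 0.12 (adjusted p = 0.000684) and 0.09 after adjustment (adjusted p = 0.407).

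Tfb2m melts the promoter together with the polymerase. It was at 33.2, 32.7 and 33.1 CPM in floxed cells and at 24.8, 29.6 and 23.6 CPM in vehicle knockout cells, every knockout library below every floxed one. Its log2 fold change was -0.34 ± 0.11 (adjusted p = 0.00897), but it turned to 0.23 after GC adjustment (adjusted p = 0.0154) and missed the threshold without knockout vehicle replicate 1 (-0.27, adjusted p = 0.055). Polrmt, the single-subunit RNA polymerase of mitochondria, went the other way, from 42.2, 41.1 and 43.6 CPM to 49.6, 43.8 and 57.8 CPM. Its knockout libraries spread widely, and replicate 2 lay just above the highest floxed library. The log2 fold change of 0.25 ± 0.1 (adjusted p = 0.0362) became -0.22 after adjustment (adjusted p = 0.00475). The call did not survive removal of knockout vehicle replicate 3 (0.15, adjusted p = 0.153) or of any 1 of the floxed libraries (adjusted p between 0.0633 and 0.113). Polrmt therefore has no direction that held in both fits.

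The elongation factor Tefm was not called as fitted (0.2 ± 0.11, adjusted p = 0.136) and was higher after GC adjustment (0.54, adjusted p = 7.5e-05). Mterf4, which guides a methyltransferase during ribosome assembly, and Tfb1m, the 12S rRNA dimethylase, were called in neither fit, at log2 fold changes of -0.13 and -0.02 as fitted and -0.09 and 0.37 after adjustment. Of the Mterf4 exon sequence, 35.2% lies under Sned1 on the other strand, and no source used here says how strand was treated in counting.

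The replication group had 2 of 9 genes called, Top1mt higher and Ssbp1 lower, and after GC adjustment 3 were higher and 1 lower. Top1mt, the topoisomerase that relaxes mitochondrial DNA, lies at chr15:75657035-75678800 (minus strand) and was at 4.29, 3.99 and 4.09 CPM in floxed cells. It was at 8.48, 7.2 and 8.79 CPM in vehicle knockout cells and at 9.39, 10.4 and 7.32 CPM in treated knockout cells. All 6 knockout libraries lay well above the 3 floxed ones, at 1.98-fold (log2 0.98 ± 0.16, adjusted p = 2.9e-05), and GC adjustment reduced the difference to 0.53 (adjusted p = 0.00278). Ssbp1 encodes the single-strand binding protein of the mitochondrial replication fork. It was at 35.0, 35.4 and 33.9 CPM in floxed cells and at 26.1, 25.9 and 20.7 CPM in vehicle knockout cells. It was lower as fitted (-0.52 ± 0.1, adjusted p = 0.000307) and higher after adjustment (0.32, adjusted p = 0.00417).

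The replicative polymerase and helicase changed little. Polg, the catalytic subunit of the DNA polymerase, was at 54.5, 51.7 and 54.6 CPM in the floxed and 62.9, 52.4 and 65.1 CPM in vehicle knockout cells, with knockout replicate 2 inside the floxed range. Its log2 fold change was 0.17 ± 0.09 (adjusted p = 0.119, 95% interval -0.06 to 0.39), and -0.07 after adjustment. Without knockout vehicle replicate 2 it was 0.26 and called (adjusted p = 0.00395). Twnk, the Twinkle helicase, was at 37.0, 35.3 and 35.7 CPM in the floxed and 38.7, 37.1 and 44.1 CPM in vehicle knockout cells. The ranges just missed each other, the log2 fold change was 0.15 ± 0.09 (adjusted p = 0.161, interval -0.07 to 0.37), and the sign turned after adjustment (-0.2, adjusted p = 0.0209). Without knockout vehicle replicate 2 Twnk was called higher (0.21, adjusted p = 0.0374).

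The polymerase's accessory subunit Polg2, the exonuclease Mgme1, the RNA-primer nuclease Rnaseh1 and the ligase Lig3 were called in neither fit. Their log2 fold changes were 0.02, 0.09, 0.25 and -0.11 as fitted and -0.11, -0.02, 0.09 and -0.16 after adjustment. Rnaseh1 and Lig3 also serve the nucleus, and 25.1% of the Lig3 exon sequence is shared with Rffl on the other strand. Primpol, a primase that restarts stalled forks, was not called as fitted (0.14 ± 0.13) and was higher after adjustment (0.81, adjusted p = 2.59e-06). Knockout vehicle replicate 2 was its highest library, at 15.5 CPM against 10.5 and 11.5 in the others.

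In the nucleotide supply group, 3 of 4 genes rose (Tk2, Dguok, Mpv17) and 1 fell (Rrm2b), and after GC adjustment 2 were higher and none lower. Tk2, the thymidine kinase of the mitochondrial matrix, was at 11.7, 12.8 and 12.8 CPM in floxed cells and at 17.5, 20.6 and 18.9 CPM in vehicle knockout cells. The gap between the groups was larger than the spread within either, at 1.53-fold (log2 0.61 ± 0.1, adjusted p = 5.55e-05, GC-adjusted 0.3, adjusted p = 0.012). Dguok, its counterpart for purine deoxynucleosides, was at 7.46, 8.24 and 8.14 CPM in the floxed and 11.3, 9.12 and 11.0 CPM in vehicle knockout cells. Its change was 0.39 ± 0.13 (adjusted p = 0.0146), and the call was lost after GC adjustment (0.26, adjusted p = 0.073) and without floxed vehicle replicate 1 (0.35, adjusted p = 0.0615).

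Rrm2b, the p53-induced ribonucleotide reductase subunit that supplies non-dividing cells, was at 14.9, 13.2 and 12.6 CPM in the floxed and 7.83, 11.6 and 7.45 CPM in vehicle knockout cells. Replicate 2 was again the knockout library nearest to the floxed group. Rrm2b was lower as fitted (-0.6 ± 0.16, adjusted p = 0.00335) and higher after adjustment (0.44, adjusted p = 0.00336). The inner membrane protein Mpv17 rose by 0.37 ± 0.13 (adjusted p = 0.0212) and was not called after adjustment (0.1). It also missed the threshold when floxed replicate 1, or knockout vehicle replicate 1 or 3, was left out (0.31 to 0.33, adjusted p between 0.0714 and 0.0855). Knockout vehicle replicate 2 lay inside the floxed range of Mpv17, so the groups overlapped. Of the Mpv17 exon sequence, 14.4% is shared with Gm29609 on the same strand.

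**Figure D3:**
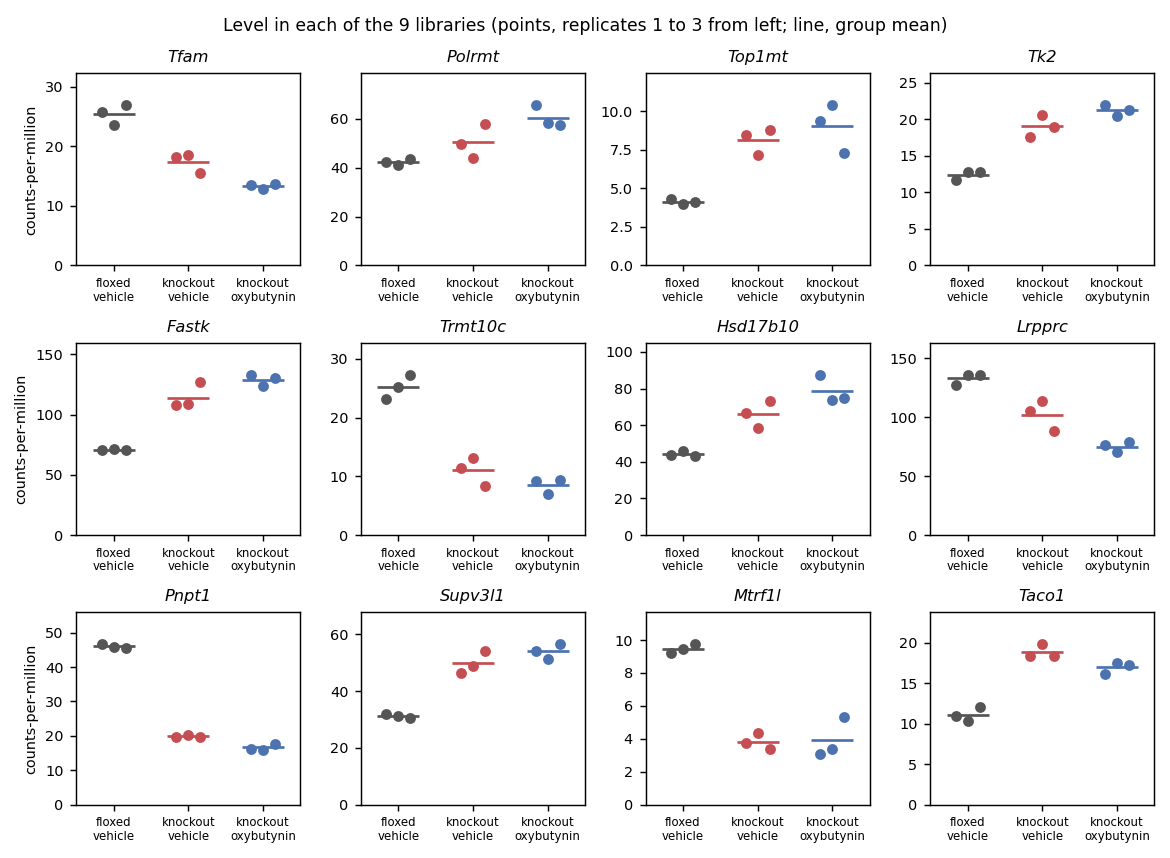
CPM of 12 genes in each of the 9 libraries (y axis, from 0), by group on the x axis, with a line at the group mean. Pnpt1, Trmt10c and Mtrf1l fall between floxed and knockout vehicle with no overlap, Supv3l1, Hsd17b10 and Taco1 rise, and Polrmt has 1 knockout vehicle library at the floxed level.

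The 9 RNA processing genes held 3 that rose (Fastk, Hsd17b10, Elac2) and 3 that fell (Trmt10c, Fastkd5, Fastkd1), and after GC adjustment 4 were higher and 3 lower. Trmt10c and Hsd17b10 are partners: with the nuclease PRORP, whose gene was not analysed here, they form mitochondrial RNase P, which cuts the 5′ end of tRNAs out of the long transcript. Trmt10c lies at chr16:56032609-56037819 (minus strand) and was at 23.2, 25.2 and 27.3 CPM in the floxed and at 11.4, 13.1 and 8.42 CPM in vehicle knockout cells. It was lower by 2.3-fold (log2 -1.2 ± 0.15, adjusted p = 1.51e-06), and by -0.48 after GC adjustment (adjusted p = 0.00186). Hsd17b10, also a fatty acid and isoleucine dehydrogenase, was at 43.8, 45.7 and 42.9 CPM in the floxed and 66.7, 58.6 and 73.0 CPM in vehicle knockout cells. It was higher by 1.5-fold (log2 0.58 ± 0.1, adjusted p = 5.16e-05, adjusted value 0.35, adjusted p = 0.000706).

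The 2 subunits therefore moved apart in both fits. Their ratio per length, Hsd17b10 over Trmt10c, does not depend on how libraries are scaled, but it was not GC-adjusted. GC content was 51.2% for Hsd17b10 and 42.2% for Trmt10c, and their changes were smaller after adjustment (0.35 and -0.48, as above). As counted, the ratio was 4.36, 4.2 and 3.64 in floxed cells, 13.5, 10.4 and 20.0 in vehicle knockout cells and 21.9, 24.5 and 18.4 in treated knockout cells. Every knockout library was above every floxed library. The pairs for which such ratios are given were chosen after the values were seen. The ratios are descriptions, and none was GC-adjusted.

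Fastk, the founding member of the FAST kinase domain family of mitochondrial RNA-binding proteins, was at 70.9, 71.1 and 70.2 CPM in the floxed and 108, 109 and 127 CPM in vehicle knockout cells. The floxed libraries were almost identical and the knockout libraries were all far above them, at 1.62-fold (log2 0.69 ± 0.08, adjusted p = 1.1e-06, adjusted value 0.22, adjusted p = 0.00591). Of the Fastk exon sequence, 26.1% is shared with Slc4a2 on the other strand. The other family members had these values, and their difference from Fastk was not tested. Fastkd1 fell by 0.27 on the log2 scale (adjusted p = 0.0352), a call lost without any 1 of 8 libraries, all but knockout vehicle replicate 2 (adjusted p between 0.0517 and 0.141), and after GC adjustment (0.17). Fastkd5 fell by 0.59 (adjusted p = 0.00431, adjusted value -0.14, not called), and 65.2% of its exon sequence is shared with Ubox5 on the same strand, so reads of these 2 genes can be split in either way. Fastkd2, Fastkd3 and Tbrg4 were not called as fitted, at -0.24, 0.18 and 0.14. After adjustment Fastkd2 and Fastkd3 were higher (0.7 and 0.22, adjusted p = 4.57e-07 and 0.0363) and Tbrg4 lower (-0.33, adjusted p = 6.45e-05). Elac2, the RNase Z that cuts the 3′ end of tRNAs in nucleus and mitochondria, was higher as fitted (0.26 ± 0.08, adjusted p = 0.00882) and lower after adjustment (-0.15, adjusted p = 0.0403).

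Among the 5 genes for RNA stability and decay, 3 fell (Pnpt1, Lrpprc, Slirp), Supv3l1 rose and Mtpap was not called, and after GC adjustment 2 were higher and 1 lower. Pnpt1, polynucleotide phosphorylase, lies at chr11:29130744-29161828 (plus strand) and had the lowest adjusted p of all 47 genes. It was at 46.6, 45.9 and 45.6 CPM in floxed cells, 19.6, 20.2 and 19.7 CPM in vehicle knockout cells and 16.1, 15.9 and 17.7 CPM in treated knockout cells. The 3 groups did not overlap, and the spread within each was under 1 CPM (SD). The fall was 2.32-fold (log2 -1.22 ± 0.09, adjusted p = 2.77e-09). Pnpt1 also has the lowest GC content of the 47 genes, 40.8%, and after GC adjustment the fall was -0.26 (adjusted p = 0.0118).

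Supv3l1 is the RNA helicase that works with polynucleotide phosphorylase in the mitochondrial degradosome, the complex that clears antisense and processed RNA. It lies at chr10:62429209-62449738 (minus strand) and was at 32.1, 31.3 and 30.5 CPM in the floxed and 46.4, 49.0 and 54.1 CPM in vehicle knockout cells. The rise was 1.59-fold (log2 0.67 ± 0.09, adjusted p = 3.58e-06), and 0.54 after adjustment (adjusted p = 6.45e-06). As with RNase P, the partners moved apart in both fits. The ratio of Supv3l1 to Pnpt1 per length was 0.817, 0.808 and 0.791 in floxed cells. It was 2.8, 2.88 and 3.26 in vehicle knockout cells and 3.97, 3.84 and 3.79 in treated knockout cells. The 3 groups did not overlap and replicates of a group lay close together. This ratio was not GC-adjusted, and GC content was 50% for Supv3l1 and 40.8% for Pnpt1. Between the knockout groups, the GC-adjusted log2 differences of Supv3l1 and Pnpt1 were 0.09 and -0.09, and neither was called.

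Lrpprc, which shields mitochondrial messages and promotes their polyadenylation, was at 127, 136 and 136 CPM in the floxed and 105, 114 and 88.1 CPM in vehicle knockout cells. Its log2 fold change was -0.37 ± 0.09 (adjusted p = 0.00183), and -0.11 after GC adjustment (adjusted p = 0.152). Slirp, its binding partner, was at -0.51 ± 0.16 (adjusted p = 0.0117) and -0.03 after adjustment, and it was not called once knockout vehicle replicate 3 was left out (-0.38, adjusted p = 0.0753). Reads of Slirp cannot be told from those of Snw1 without the strand setting, since 93.9% of its exon sequence lies under that gene. Mtpap, the mitochondrial poly(A) polymerase, was not called as fitted (-0.08 ± 0.11) and was higher after adjustment (0.64, adjusted p = 4.71e-07).

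Of the 3 tRNA modification genes, 2 rose and none fell, and after GC adjustment 1 was higher, against 29.9% and 27.8% of all genes called higher in these fits. Mto1 and Gtpbp3 encode the partners that add taurinomethyl groups to the wobble uridine of mitochondrial tRNAs, and Trmu thiolates the same base. Gtpbp3 was at 16.7, 17.6 and 17.0 CPM in the floxed and 21.4, 23.3 and 29.1 CPM in vehicle knockout cells (log2 0.52 ± 0.11, adjusted p = 0.000596), and 0.05 after GC adjustment (adjusted p = 0.674). Mto1 was at 13.9, 16.6 and 16.2 CPM in the floxed and 20.0, 18.6 and 20.4 CPM in vehicle knockout cells. Its rise of 0.33 ± 0.11 (adjusted p = 0.0156) was 0.28 after adjustment (adjusted p = 0.0196), and was not called without floxed vehicle replicate 1 (0.26, adjusted p = 0.094). Trmu was called in neither fit (0.1 ± 0.13, GC-adjusted -0.26).

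Of the 10 translation factors, 5 were higher (Taco1, Tsfm, Mtif3, Mrrf, Tufm) and 2 lower (Mtrf1l, Mtif2), against 29.9% and 33.4% of all genes. After GC adjustment 5 were higher (Taco1, Tsfm, Mrrf, Gfm1, Gfm2) and 2 lower (Mtrf1l, Tufm). Mtrf1l, the release factor that ends translation at standard stop codons, had the largest fall of the 47 genes. It lies at chr10:5811887-5823910 (minus strand) and was at 9.2, 9.45 and 9.74 CPM in floxed cells. It was at 3.77, 4.35 and 3.36 CPM in vehicle knockout cells and 3.1, 3.38 and 5.3 CPM in treated knockout cells. All 6 knockout libraries lay below the 3 floxed ones. The fall was 2.47-fold (log2 -1.31 ± 0.18, adjusted p = 5.61e-06) and, unlike that of Pnpt1, kept most of its size after GC adjustment (-1.07, adjusted p = 1.4e-05). Its paralog Mtrf1 was called in neither fit (-0.16 ± 0.19, GC-adjusted 0.09), at the lowest level per length of the machinery, 1.15 CPM per kb in floxed cells.

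Taco1, the activator of translation of the cytochrome oxidase subunit COX1, was at 11.0, 10.3 and 12.1 CPM in the floxed and 18.4, 19.8 and 18.4 CPM in vehicle knockout cells. The groups were well apart, at 1.69-fold (log2 0.76 ± 0.1, adjusted p = 6.17e-06, adjusted value 0.4, adjusted p = 0.00376). Tufm and Tsfm are the elongation factor that brings tRNAs to the ribosome and the factor that recharges it. Tsfm was at 11.3, 11.4 and 12.1 CPM in the floxed and 19.0, 16.4 and 19.5 CPM in vehicle knockout cells (log2 0.66 ± 0.1, adjusted p = 2.89e-05, adjusted value 0.26, adjusted p = 0.0117).

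Tufm, the gene with the highest level per length of the 47 (55.6 CPM per kb in floxed cells), was at 117, 118 and 120 CPM in the floxed and 134, 129 and 154 CPM in vehicle knockout cells. Its log2 fold change of 0.23 ± 0.08 (adjusted p = 0.0201) became -0.21 after adjustment (adjusted p = 0.0035). The call was also lost without any 1 of the floxed libraries or without knockout vehicle replicate 3 (0.16 to 0.24, adjusted p between 0.0507 and 0.0683). The ratio of Tsfm to Tufm per length was 0.0708, 0.0706 and 0.074 in floxed cells and 0.104, 0.0933 and 0.0926 in vehicle knockout cells, so the nucleotide exchange factor gained on its partner in all 3 libraries.

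The initiation factors split as well. Mtif2, which brings the initiator tRNA to the ribosome, fell by 0.63 on the log2 scale (adjusted p = 8.66e-05), while Mtif3, which keeps the ribosomal subunits apart, rose by 0.51 (adjusted p = 0.00147). Neither was called after GC adjustment (-0.05 and 0.22), and 29.4% of the Mtif3 exon sequence is shared with Gtf3a on the other strand. The recycling factor Mrrf rose by 0.46 ± 0.1 (adjusted p = 0.000455) and by 0.48 after adjustment (adjusted p = 0.000177). The elongation factor Gfm1 and the recycling GTPase Gfm2 were not called as fitted (0.07 and 0.12) and were higher after adjustment (0.22 and 0.35, adjusted p = 0.00492 and 0.00258).

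Without each of the 9 libraries in turn, 11 of the 16 higher genes and 10 of the 13 lower genes stayed called each time. Under 19 other ways of processing, which include those, GC adjustment and DESeq2, 8 genes stayed higher (Top1mt, Tk2, Hsd17b10, Fastk, Supv3l1, Tsfm, Mrrf, Taco1) and 3 stayed lower (Trmt10c, Pnpt1, Mtrf1l). The share of all called genes that stayed called in these ways was not worked out. Whether these members were steadier than other genes is therefore not known.

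**Figure D4:**
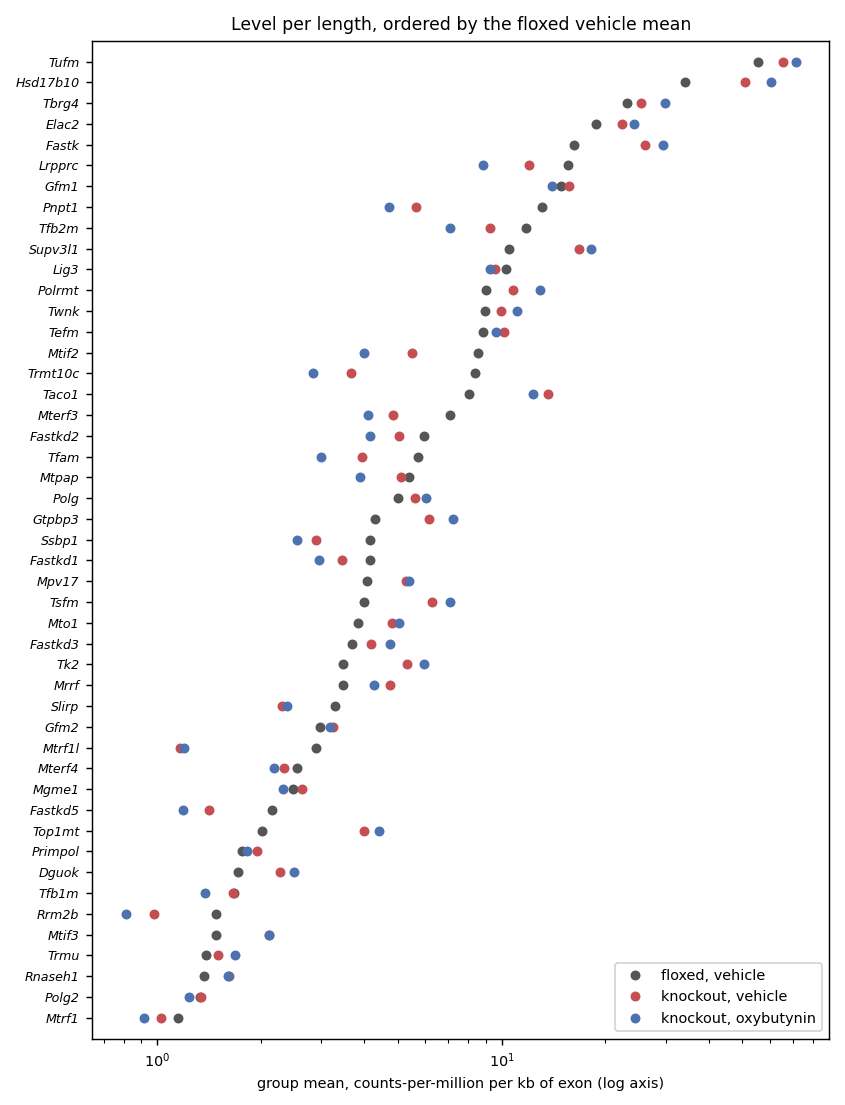
Group mean of each of the 47 genes in CPM per kb of exon (x axis, log scale), ordered by the floxed vehicle mean, with 1 point per group. Tufm stands highest and Mtrf1 lowest in floxed cells, and Pnpt1, Trmt10c and Mtrf1l move far to the left in both knockout groups.

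The level per length ordered the genes from Tufm (55.6 CPM per kb in floxed cells), Hsd17b10 (34.0), Tbrg4 (23.2), Elac2 (18.8) and Fastk (16.2) to Rnaseh1 (1.37), Polg2 (1.33) and Mtrf1 (1.15). Length here is that of all annotated exons of a gene, which lowers the value of genes with long rare transcripts. RNA processing genes filled 4 of these first 5 places. In knockout vehicle Pnpt1 stood at 5.64 CPM per kb and Supv3l1 at 16.8, against 13.1 and 10.5 in floxed cells, so the order of the pair was exchanged.

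No difference with oxybutynin passed the threshold for these genes. Comparing knockout oxybutynin with knockout vehicle, edgeR called 0 of the 47 genes, and over all 15720 tested genes it called only 1 higher (0.00636%) and 1 lower (0.00636%). At an unadjusted p under 0.05, 4 members were higher and 8 lower, 12 of 47, against 26% of all genes. DESeq2 called 5 members, all lower (Tfam, Tfb2m, Lrpprc, Mtpap and Mtif2), and 11.9% of the 9676 genes to which it gave an adjusted p. Of its 1156 calls over all genes, 190 (16.4%) were higher. It gave no adjusted p to Tfb1m, Polg2, Top1mt, Rnaseh1, Fastkd5, Trmu, Mtrf1 and Mtrf1l. The ranges of the groups did not overlap for 14 members, against 22.1% of all genes. Log2 fold changes ran from -0.47 to 0.26 with a median of -0.04, against 0 over all genes, and no 95% interval reached farther than 0.47 from its estimate.

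**Figure D5:**
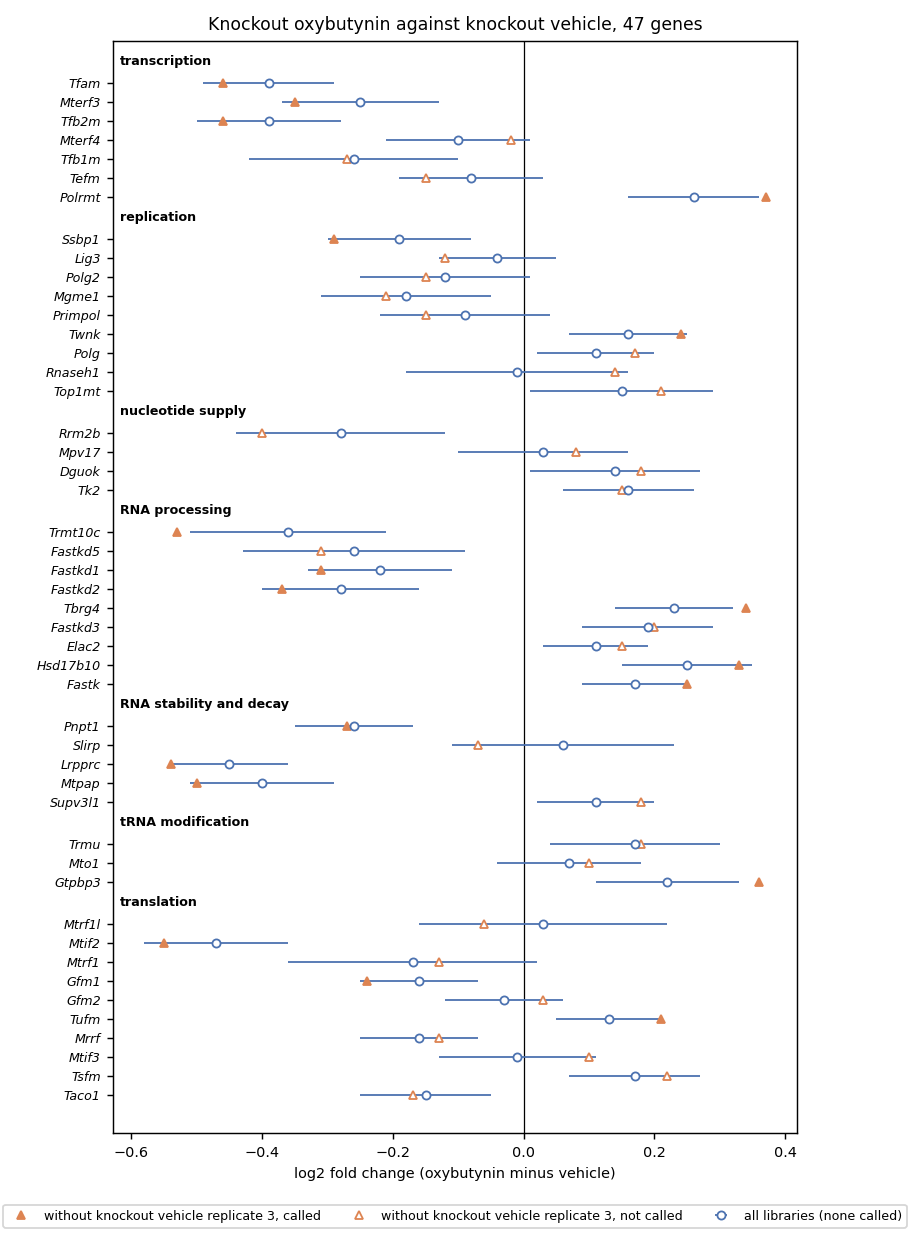
Log2 fold change of each of the 47 genes between knockout oxybutynin and knockout vehicle (x axis), grouped by role, with 1 standard error (circles, all libraries, none called) and without knockout vehicle replicate 3 (triangles, filled where the adjusted p was under 0.05). Lrpprc, Mtif2 and Mtpap lie lowest and Polrmt highest, and 19 triangles are filled.

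The lowest adjusted p among the members was that of Lrpprc, at 76.3, 70.4 and 78.6 CPM with oxybutynin against 105, 114 and 88.1 CPM with vehicle. The groups did not overlap, and the log2 difference was -0.45 ± 0.09 (edgeR adjusted p = 0.0638, DESeq2 adjusted p = 0.00214). Mtif2 was at -0.47 ± 0.11 (edgeR adjusted p = 0.0651), Mtpap at -0.4 ± 0.11 (0.0752), Tfam at -0.39 ± 0.1 (0.0749) and Tfb2m at -0.39 ± 0.11 (0.0755). Tfam was at 13.5, 12.8 and 13.6 CPM with oxybutynin, each below the lowest vehicle library at 15.6. Pnpt1 and Trmt10c were at -0.26 ± 0.09 and -0.36 ± 0.15, Mtrf1l at 0.03 ± 0.19 and Top1mt at 0.15 ± 0.14, and none was called. After GC adjustment the differences of Lrpprc, Mtif2, Mtpap, Tfam and Tfb2m were -0.28, -0.28, -0.16, -0.21 and -0.23 (adjusted p between 0.118 and 0.339).

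Polrmt stood at 65.5, 58.3 and 57.6 CPM with oxybutynin, a log2 difference of 0.26 ± 0.1 from knockout vehicle (adjusted p = 0.128) with overlap at replicate 3. Polg was at 66.5, 65.4 and 62.3 CPM (0.11 ± 0.09, adjusted p = 0.461), Twnk at 41.8, 45.2 and 46.9 CPM (0.16 ± 0.09, adjusted p = 0.276) and Tufm at 161, 151 and 144 CPM (0.13 ± 0.08, adjusted p = 0.33). Each of these 3 overlapped the vehicle group. The correlation of the log2 difference with GC content was 0.812 across the members and 0.588 across all genes, and after GC adjustment 0 members and 0 of all genes were called.

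The outcome of this comparison rested on which knockout vehicle libraries were used. Knockout vehicle replicate 3 was the library of its group nearest to the oxybutynin mean for 29 of the 47 genes, and replicate 2 was the nearest to the floxed mean for 28. The median coefficient of variation of the members was 10.7% in vehicle knockout cells, 5.79% in treated knockout cells and 3.97% in floxed cells. Without replicate 3, edgeR called 7 of the 47 members higher and 12 lower between the knockout groups. Over all 16097 genes tested without that library it called 4188, of which 1873 were higher. Then Lrpprc was at -0.54 (adjusted p = 0.00166), Tfam at -0.46 (adjusted p = 0.00602) and Polrmt at 0.37 (adjusted p = 0.00928). Without replicate 3 and with GC adjustment, 510 of 16097 genes were called, 178 of them higher, and among the 510 was 1 member, which was lower. Without replicate 2, 63 of 16114 genes were called, and Lrpprc (-0.36, adjusted p = 0.0477) was the only member.

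Against floxed vehicle, the oxybutynin-treated knockout cells had 20 members higher, 15 lower and 12 not called, with 35.1% and 36.9% of all genes called higher and lower. The ranges did not overlap for 41 of the 47 genes, against 78.9% of all genes. This comparison shares its libraries with both others, so its values are given side by side and not as separate support. Tfam had a log2 fold change of -0.55 from floxed vehicle in vehicle knockout cells and -0.94 in treated knockout cells (adjusted p = 3.29e-07). Lrpprc had -0.37 and -0.82 (adjusted p = 4.38e-07), Mtif2 -0.63 and -1.1 (adjusted p = 1.26e-07), and Trmt10c -1.2 and -1.57 (adjusted p = 5.17e-08). After GC adjustment these pairs were -0.12 and -0.33 for Tfam, -0.11 and -0.39 for Lrpprc, -0.05 and -0.33 for Mtif2, and -0.48 and -0.66 for Trmt10c.

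Mtrf1l had -1.31 and -1.28 (GC-adjusted -1.07 and -0.91), and Mrrf 0.46 and 0.31 (GC-adjusted 0.48 and 0.39). Polg and Twnk, not called in vehicle knockout cells, were called higher in treated cells (0.27 and 0.31, adjusted p = 0.012 and 0.00599), and neither was called after GC adjustment (-0.05 and -0.14). After GC adjustment 18 members were higher and 11 lower, against 29.5% and 31.3% of all genes. Tfam, Lrpprc and Mtif2 were then among 6 members lower in both fits, with Trmt10c, Pnpt1 and Mtrf1l.

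A wider list of 91 genes of the same pathway was set beside the members, and 87 of them could be tested. Of these, 31 were higher and 24 lower in knockout than in floxed cells, against 29.9% and 33.4% of all genes, and 23 and 23 after GC adjustment, against 27.8% and 30%. The share of the wider list called, 63.2%, is near that of all genes. The 12 genes for assembly of the mitochondrial ribosome held 7 that rose and 1 that fell (4 and 2 after GC adjustment), led by the GTPase Mtg1 (10.7 to 20.2 CPM, log2 0.91, adjusted p = 7.71e-07, GC-adjusted 0.77) and Ngrn (0.89, adjusted p = 6.15e-06, GC-adjusted 0.56). The 20 tRNA and rRNA modification genes held 9 that rose and 4 that fell (7 and 4 after adjustment). The 11 tested genes of RNA processing, decay and termination held none that rose and 5 that fell, and 1 higher and 3 lower after adjustment. In that last list Trnt1, which adds the CCA end to tRNAs, was at -0.95 (adjusted p = 3.13e-06, GC-adjusted -0.35) and Mterf2 at -1.11 (adjusted p = 1.23e-05, GC-adjusted -0.83).

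The other 11 tested nucleotide supply genes held 4 that rose and 4 that fell (5 and 2 after adjustment). Slc25a33, a pyrimidine nucleotide carrier of the inner membrane, was at 3.78, 3.61 and 3.47 CPM in floxed cells and at 13.6, 11.5 and 13.9 CPM in vehicle knockout cells. The rise was 3.59-fold (log2 1.84 ± 0.14, adjusted p = 2.7e-09) and 1.45 after adjustment, larger than that of any of the 47 members. Slc25a36, a related carrier, had a log2 fold change of -1.02 (adjusted p = 2.01e-06), which turned to 0.27 after GC adjustment (adjusted p = 0.00142). A separate list of 15 genes for DNA repair and the nucleoid held 5 that rose and 3 that fell (2 and 6 after adjustment). In it Dna2, a helicase and nuclease that processes flaps in nucleus and mitochondria, fell by 1.16 on the log2 scale (adjusted p = 2.98e-06, GC-adjusted -1.19). Neil1 rose by 0.81 (adjusted p = 3.42e-05, GC-adjusted 0.32).

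The 9 regulators of these genes held 3 that rose and 5 that fell, and 1 higher and 6 lower after GC adjustment. Gabpa, which encodes an ETS factor, was at 75.2, 72.1 and 76.8 CPM in floxed cells and 26.7, 31.2 and 26.2 CPM in vehicle knockout cells. It fell 2.66-fold (log2 -1.41 ± 0.1, adjusted p = 1.35e-09), and by -0.59 after GC adjustment (adjusted p = 5.97e-07). Whether its product was bound at any of the promoters shown above was not tested. Ppargc1a, the coactivator PGC-1α, was at 46.6, 44.7 and 48.9 CPM in the floxed and 19.1, 21.3 and 18.6 CPM in vehicle knockout cells (log2 -1.25 ± 0.1, adjusted p = 8e-09, GC-adjusted -0.9). Yy1 was at -0.51 (adjusted p = 0.000115, GC-adjusted -0.58). No gene of the wider list was called between the knockout groups by edgeR, against 2 of all 15720 tested genes. At an unadjusted p under 0.05 in that test, 6 of its 87 tested genes were higher and 14 lower, against 26% of all genes in either direction.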

How the data were processed

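Trizol total RNA (2 µg) was made into directional libraries with a NEBNext kit, per the labels' protocols. The authors deposited whole-number raw counts per gene. The submitters' processing notes name STAR 2.7.0e, Trim Galore 0.6.0 with cutadapt and FastQC, and DESeq2 1.26.0, with GRCm38 and mm10. How reads were counted, on which strand and with which annotation is not given in the sources. All 55536 gene IDs matched GENCODE M21, which gave symbols, coordinates, exon lengths and GC content.

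Counts were tested with edgeR 4.0.16 (R 4.3.3) after filterByExpr and TMM scaling, by glmQLFit and glmQLFTest on all 9 libraries with 1 mean per group (6 residual degrees of freedom). The Benjamini-Hochberg adjustment ran over 15720 genes, with a gene called at an adjusted p under 0.05, and intervals are 95%. CPM uses TMM-scaled totals. GC adjustment removed each library's smooth trend of log2 CPM (prior count 2) on GC content and exon length, fitted with mgcv 1.9.3, as offsets. Scripts were tested on simulated counts. Alternatives included DESeq2 1.42.0 and leaving out each library. Totals of 19604971 to 26226949 counts set the precision of low genes, and intervals cover these libraries only. Nothing in the labels says that libraries of a group came from separate cultures, so each p-value measures only the spread between the samples at hand, which may be technical.

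The members and lists were chosen with earlier results of these data known. Library values are given for Tfam, Polrmt, Polg, Twnk, Tufm and Lrpprc, for up to 3 called members per role with the lowest adjusted p, and, among the wider list, values for up to 3 called genes per list. Values of single libraries of Primpol and the ratios of partner genes were chosen after they were seen. Of the wider list, 3 symbols had no match and 1 gene was not tested.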

Additional observations from a re-analysis of the deposited data

How the results depend on the processing

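No paired analysis was possible because the groups share no replicate numbers in the labels. Between knockout and floxed vehicle, leaving out each library gave 11 to 19 higher and 11 to 15 lower members. The count over all genes moved too. It was lowest without floxed vehicle replicate 2 (8950 of 16002 genes called) and highest without knockout vehicle replicate 2 (10994 of 16114). Removing the GC and length trend left 8 lower members, as did removing the GC trend alone or both trends without knockout vehicle replicate 2, and 7 were left without replicate 3. These 4 settings aside, no other moved the counts of members in this comparison by over 1.5 times. With that trend removed, the log2 fold change between knockout and floxed vehicle turned to 0.23 for Tfb2m, -0.22 for Polrmt, 0.09 for Mterf3, -0.2 for Twnk, 0.32 for Ssbp1, 0.44 for Rrm2b, -0.15 for Elac2, 0.17 for Fastkd1, 0.7 for Fastkd2, -0.33 for Tbrg4, 0.64 for Mtpap and -0.21 for Tufm. Between knockout oxybutynin and floxed vehicle it turned to 0 for Tfb2m, -0.15 for Polrmt, 0.05 for Mterf3, -0.05 for Polg, -0.14 for Twnk, 0.38 for Ssbp1, 0.42 for Rrm2b, -0.19 for Elac2, 0.15 for Fastkd1, 0.64 for Fastkd2, -0.28 for Tbrg4, 0.19 for Slirp, 0.48 for Mtpap, -0.26 for Tufm and 0.18 for Gfm1. The cause of these turns was not tested beyond that trend.

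Between the knockout groups, the 2 genes called over all genes became 1156 with DESeq2, 7 with RLE scaling, 158 with library totals as the only scaling, 1099 with no filter, 13 without mitochondrial and ribosomal RNA genes, 1 among protein-coding genes and 0 at an adjusted p under 0.01. They became 0 with the GC and length trend or the GC trend alone removed, and 9 with the length trend alone removed. Leaving out each library gave 0 to 4188 genes, 0 to 7 higher members and 0 to 12 lower members, the highest values all without knockout vehicle replicate 3. With both trends removed, 13 genes were called without knockout vehicle replicate 2 and 510 without replicate 3, the latter with 1 lower member. Lower members numbered 5 with DESeq2, 5 with no filter and 1 with library totals. Of the genes called between the knockout groups, 1 of 2 was higher as fitted, 2 of 7 (28.6%) with RLE scaling, 10 of 158 (6.33%) with library totals, 190 of 1156 (16.4%) with DESeq2, 2 of 2 with only the groups compared, 277 of 1099 (25.2%) with no filter, 2 of 13 (15.4%) without mitochondrial and ribosomal RNA genes, 0 of 1 among protein-coding genes and 1873 of 4188 (44.7%) without knockout vehicle replicate 3. The GC trend alone, the length trend alone and both trends without 1 knockout vehicle library were added after seeing the data. The causes of these shifts were not tested.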

Other observations

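The annotated starts of 5 of the 47 genes (10.6%) lay head to head with that of a protein-coding gene on the other strand, within 1000 bases. The same held for 10.3% of 12982 tested protein-coding genes. The ratio of Elac2 to Trmt10c per length was 2.45, 2.21 and 2.07 in floxed cells, 5.68, 5.02 and 8.49 in vehicle knockout cells and 8.11, 9.91 and 7.87 in treated knockout cells, while Elac2 itself was higher as fitted and lower after GC adjustment. The ratio of the release factors, Mtrf1l to Mtrf1, was 2.15, 2.47 and 3.06 in floxed cells and 1.2, 1.28 and 0.945 in vehicle knockout cells. The ratio of Polg2 to Polg, the subunits of the DNA polymerase, was 0.247, 0.287 and 0.265 in floxed cells and 0.215, 0.303 and 0.213 in vehicle knockout cells, and these ranges overlapped. In treated knockout cells the ratio of Polg2 to Polg was 0.203, 0.208 and 0.204, below every floxed library. The ratio of Slirp to Lrpprc was 0.213, 0.201 and 0.216 in floxed, 0.254, 0.143 and 0.181 in vehicle knockout and 0.256, 0.288 and 0.269 in treated knockout cells. Its floxed and vehicle knockout ranges overlapped. In the same order of groups, the mean ratio was 0.175, 0.39 and 0.531 for Mtif3 to Mtif2 and 1.58, 2.78 and 4.31 for Polrmt to Tfam. These pairs were chosen after their values were seen, and their ratios were not GC-adjusted.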
